A study of Mus musculus with 32 samples.

Results

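CHD4 regions lost by 2 h are genomic regions at which the chromatin remodeller CHD4 was called before Ikaros induction and no longer called 2 h after it. They were chosen by peak calls alone: the 8 CHD4 peak lists were merged into 15355 regions, and a region was a member when it overlapped a peak in both 0 h lists and in neither 2 h list. The rule found 223 members, which is 1.45% of the merged regions and 11.8% of the 1888 regions called in both 0 h lists. Of those 1888, 1103 were called in both 2 h lists and are named retained, and 562 were called in 1 of the 2 h lists and are named partly kept.

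B3 is a line of mouse pre-B cells, and all cells had received by retrovirus an HA-tagged Ikaros (IKZF1) fused to ERt2, a receptor domain that keeps the protein out of the nucleus until 4-hydroxytamoxifen (4-OHT) binds it. Samples were taken without 4-OHT (0 h) or 30 min, 1 h or 2 h after 500 nM 4-OHT. Chromatin immunoprecipitation and sequencing (ChIP-seq) of HA-Ikaros, CHD4 and acetylated histone H3 lysine 27 (H3K27ac) was done in 2 replicates per time, and each of these libraries gave 1 peak list. Input chromatin was also sequenced for each time and replicate. The sources used here do not state which input, if any, served each list. Lists that shared an input would not be independent of each other. Ikaros and H3K27ac values could then be tied to the CHD4 calls that chose the members, which was not tested. The labels do not say whether replicates were separate cultures, so each p-value below measures only the spread between these samples. The HA antibody is directed at the introduced fusion and not at the Ikaros of the cell itself, and all libraries come from a single cell line. HA peaks were called without 4-OHT too (7822 and 9527 at 0 h). Whether these came from fusion already in the nucleus or from unspecific signal was not tested, and they are called Ikaros peaks below.

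Ikaros is a zinc finger DNA-binding protein that is required for lymphocyte development, and both repressing and activating functions have been ascribed to it. It binds the NuRD complex, whose ATPase CHD4 slides nucleosomes and whose HDAC1 and HDAC2 subunits remove acetyl groups from histones. H3K27ac marks active promoters and enhancers, and NuRD is often found at such elements in lymphoid cells. The H3K27ac lists matched the labelled cell type: 8 of 9 pre-B cell markers had a peak at the start site in both 0 h lists, the exception being Rag1, as had 0 of 6 T cell and 0 of 6 myeloid markers. Of 4 erythroid markers, Hbb-bt and Klf1 had one.

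The calls depend on how deep each list is. CHD4 lists held 2488 and 6000 peaks at 0 h and 5523 and 9593 at 2 h, so list length differed between replicates as much as between times. Ikaros lists held 7822 and 9527 peaks at 0 h, 9181 and 5373 at 30 min, 12447 and 14874 at 1 h and 14225 and 14179 at 2 h. The depth of the CHD4 lists is unknown, since broad peaks do not give it back. Coverage recovered from the narrow lists was 3.59 and 3.13 fragments per base for Ikaros at 0 h and 2.85 and 2.13 at 2 h, and 3.74 to 4.34 for H3K27ac. A region missing from a list was below that list's threshold and is not shown to be unbound.

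Sequences of 5 members are shown first because their Ikaros or H3K27ac values are used below. Each is the plus strand of GRCm38 (mm10, RefSeq), 180 bases around the strongest 0 h Ikaros summit in the member. Capitals mark GGAA and GGGA, the core words that Ikaros and ETS proteins recognise, and their reverse complements TTCC and TCCC.
Prdm10 chr9:31266211-31266390: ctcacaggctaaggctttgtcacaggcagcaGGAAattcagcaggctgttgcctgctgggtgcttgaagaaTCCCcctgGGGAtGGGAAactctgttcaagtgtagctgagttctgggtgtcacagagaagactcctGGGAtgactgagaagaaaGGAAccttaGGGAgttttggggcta
Tnfrsf8 chr4:145367414-145367593: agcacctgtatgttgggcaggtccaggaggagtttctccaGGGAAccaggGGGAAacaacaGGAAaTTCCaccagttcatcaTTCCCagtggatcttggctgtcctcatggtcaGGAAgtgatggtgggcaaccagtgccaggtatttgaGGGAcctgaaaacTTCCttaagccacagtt
Bmper chr9:23570239-23570418: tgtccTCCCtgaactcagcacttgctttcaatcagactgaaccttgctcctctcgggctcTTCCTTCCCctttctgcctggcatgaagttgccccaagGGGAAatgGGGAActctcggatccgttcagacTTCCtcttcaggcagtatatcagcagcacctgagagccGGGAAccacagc
Angptl2 chr2:33221396-33221575: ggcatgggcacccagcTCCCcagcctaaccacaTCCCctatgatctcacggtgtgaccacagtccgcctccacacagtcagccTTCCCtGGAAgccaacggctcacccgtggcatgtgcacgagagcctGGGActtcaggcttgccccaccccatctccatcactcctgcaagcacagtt
Ikzf1 chr11:11658937-11659116: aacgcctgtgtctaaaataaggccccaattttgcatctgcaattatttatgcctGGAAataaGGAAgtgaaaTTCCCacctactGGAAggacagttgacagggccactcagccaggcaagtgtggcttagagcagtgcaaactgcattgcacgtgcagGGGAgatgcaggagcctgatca
These windows held 8 core words near Prdm10, 11 near Tnfrsf8 and 11 near Bmper. The windows near Angptl2 and Ikzf1 held 6 each. In the Tnfrsf8 window the words lie on both sides of the summit and several overlap.

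The rule used the CHD4 calls of 0 h and 2 h, so their values are given as a description. The percentile rank of a peak is the rank of its fold enrichment within its own list, with 100 for the highest. Members had a median CHD4 rank of 49.2 and 57.9 in the 0 h replicates, against 58.6 and 67.6 at retained regions. Their median fold was 3.55 and 3.43, and the medians of −log10 q were 2.01 and 1.83. They were peaks of middling strength in their lists. Just inside the rule, the lowest 0 h −log10 q of a member was 1.07, at the region near Zfp386, followed by 1.12 near Pigv and Pacsin2. Just outside it, the weakest 2 h peak that kept a region out had a −log10 q of 1.05 and a fold of 2.86, near Stn1, and the next were 1.05 near Cep250 and 1.07 near Mrvi1. Membership therefore turned at its edge on peaks close to the calling threshold. Of the partly kept regions, 511 were kept by 2 h replicate 2 alone and 51 by 2 h replicate 1 alone. With the rule applied without 2 h replicate 2 there were 734 members, without 2 h replicate 1 there were 274, without 0 h replicate 2 there were 378 and without 0 h replicate 1 there were 1636. With every CHD4 list cut to 2488 peaks there were 448.

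The calls of 30 min and 1 h did not choose the members, although their peaks were merged into the regions and so helped to set the extent of each region. CHD4 was called at 30.9% and 14.3% of members in the 30 min replicates, a mean of 22.6% ± 11.7 (SD, n = 2), and at 33.6% and 24.2% at 1 h, a mean of 28.9% ± 6.66. Retained regions were called at 82.6% and 91.5%, and all merged regions at 23.1% and 32.7%. By 30 min, members were thus called about as often as the merged regions at large, and the difference was smaller than the spread between replicates at both times. This likeness rests on the libraries of the rule: without CHD4 2 h replicate 2 the members' mean shares were 47.8% at 30 min and 57.4% at 1 h, and without CHD4 0 h replicate 1 they were 11.4% and 14.3%. CHD4 was in no list of 30 min or 1 h at 96 members (43.0%), against 44.7% of all merged regions, 0.635% of retained regions and 3.19% of retained regions no wider than 1368 bp, the upper quartile of member width. A further 44 members (19.7%, and 21.8% of all regions) were called in a 1 h list and no 30 min list, 31 (13.9%, and 9.54% of all) in a 30 min list and no 1 h list, and 52 (23.3%, and 23.99% of all) at both times. Over these patterns members were thus nearer to the merged regions at large than to the retained ones. Calls in both replicates were rarer at members than at all regions, at 8.07% against 12.6% for 30 min and 14.8% against 19.6% for 1 h. The merged set was itself built in part from peaks of 30 min and 1 h. The 9 members called in all 4 lists (4.04%, and 9.28% of all) include the regions near Mafg (a small Maf transcription factor), Abca1 (a cholesterol exporter), Csnk1g3 (a casein kinase), Pip4k2c (a lipid kinase) and Psd3.

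**Figure D1:**
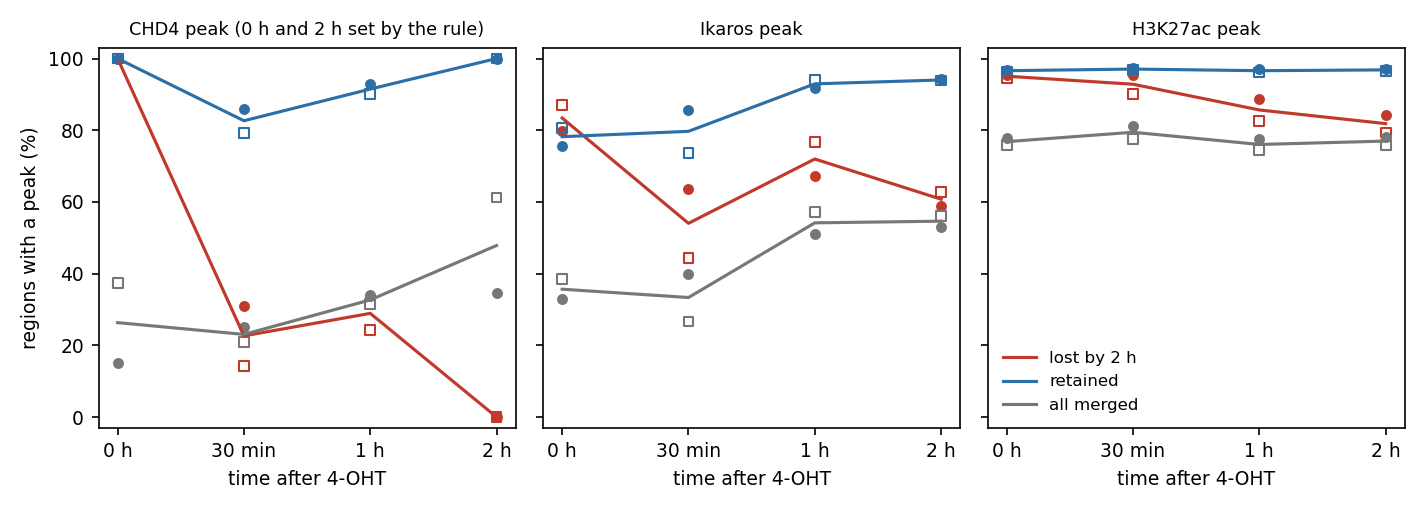
Percent of regions with a CHD4, Ikaros or H3K27ac peak (y axis) against time after 4-OHT (x axis) for the 223 lost regions, the 1103 retained regions and all 15355 merged CHD4 regions. Lines join means, filled circles are replicate 1 and open squares replicate 2. Lost regions are at the level of all regions for CHD4 at 30 min and go from 83.4% to 60.8% for Ikaros while the other classes end higher than they began.

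Ikaros was already called at most members before 4-OHT, and less often afterwards. An Ikaros peak lay at 178 and 194 of the 223 members in the 0 h replicates (83.4% ± 5.07), at 142 and 99 at 30 min (54.0% ± 13.6), at 150 and 171 at 1 h (72.0% ± 6.66) and at 131 and 140 at 2 h (60.8% ± 2.85). Each 2 h value was below each 0 h value. Over the same time retained regions went from 78.2% to 94.0%, narrow retained regions from 64.9% to 88.8% and all merged regions from 35.7% to 54.6%. The change from 0 h to 2 h was −22.6 ± 2.22 percentage points at members, 15.8 ± 3.78 at retained regions and 19.0 ± 1.83 at all regions (SD, n = 2). Each SD is over 2 differences of same-numbered replicates (−21.1 and −24.2 at members). The labels do not give this pairing, and another pairing would change the SD. With 2 libraries a time an exact two-sided test could not give a p below 2 in 6, so these values are set beside each other with no test. The 0 h Ikaros libraries were the deeper ones, and the part of depth in this difference was not tested.

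Single regions show the same direction. At 29 members (13.0%) Ikaros was called in both 0 h lists and neither 2 h list, against 1.86% of all merged regions and 0.725% of retained ones. Of the regions called in both 0 h lists, this was 29 of 171 members (17.0%), 6.61% of 4309 regions in all and 1.02% of 786 retained ones. The reverse, a call in neither 0 h list and both 2 h lists, held for 3 members (1.35%), against 12.6% of all regions. Only 22 members could show it, and the 3 are 13.6% of these, against 22.2% of the 8712 eligible regions in all and 65.2% of the 164 eligible retained ones. Ikaros had a peak in all 8 lists at 41 members (18.4%), against 14.1% of all, 59.0% of retained and 30.9% of narrow retained regions, and in no list at 9 (4.04%), against 26.6% of all. The share depended on the lists and libraries that set the rule. The Ikaros change at members was −5.13 points with CHD4 lists of equal size (448 members), −8.21 with a −log10 q of at least 3 (67 members) and −14.9 with a fold of at least 3 (336 members). Without CHD4 2 h replicate 2 the Ikaros change at members was −2.38 points, and without CHD4 0 h replicate 1 it was −4.74, and without CHD4 0 h replicate 2 it was −13.8, while the change at members stayed below that at retained regions, by 17.7, 29.1 and 30.9 points.

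Ikaros peaks at members also had lower ranks at 2 h than at 0 h. Among members with a peak, a set that differs between lists, the median rank was 81.2 and 81.1 in the 0 h replicates, 62.8 and 36.9 at 30 min, 56.8 and 56.9 at 1 h and 53.6 and 54.4 at 2 h. At retained regions it was 72.3 and 73.5 at 0 h and 83.7 and 81.5 at 2 h. The 2 classes therefore changed order: members carried the higher-ranked Ikaros peaks before 4-OHT and the lower-ranked ones after it. A percentile rank also moves with the length of its list. At the 79 members with a peak in all 4 lists of 0 h and 2 h, the median place from the top of the list, which does not count the weaker peaks added below, was 1425 and 1468 at 0 h and 6955 and 5450 at 2 h. At the 762 retained regions chosen likewise it was 1913 and 2092 and then 1670 and 1669. The members with the highest 0 h CHD4 rank also held the highest-ranked 0 h Ikaros peaks. In the 74 members of highest CHD4 rank the median Ikaros rank was 91.5 and 92.6 at 0 h and 50 and 59.4 at 2 h. In the 75 of lowest CHD4 rank it was 67.2 and 55.9 at 0 h and 58.7 and 47.7 at 2 h. Retained regions in the upper CHD4 range (n = 489) had Ikaros ranks of 80.7 and 80.8 at 0 h and 87.6 and 87.5 at 2 h.

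**Figure D2:**
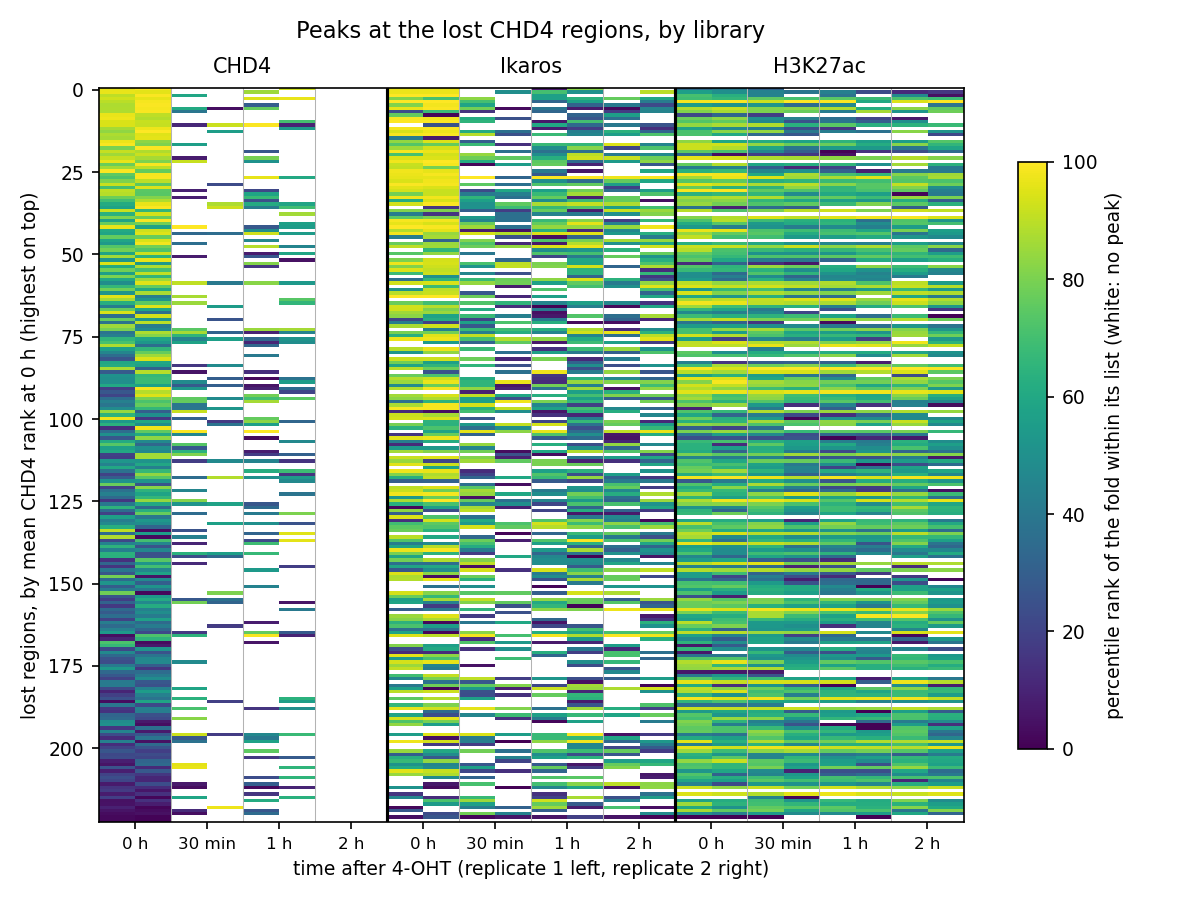
Percentile rank of the fold (colour, white where no peak was called) of the strongest CHD4, Ikaros and H3K27ac peak at each of the 223 lost regions (rows, by mean CHD4 rank at 0 h) in each of the 24 libraries (columns). The Ikaros columns of 0 h are highest in the upper rows, where the medians of the upper 74 are 91.5 and 92.6, and the CHD4 columns of 2 h are empty by the rule.

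The members of highest CHD4 rank at 0 h show this in single values. The strongest was an intergenic region at chr9:31266168-31266902, 14003 bp upstream of Prdm10 (a PR domain transcription factor), with CHD4 folds of 4.33 and 4.62 at 0 h. Its Ikaros folds were 10.9 and 12.8 at 0 h, with no peak at 30 min, 3.37 and 6.50 at 1 h and no peak at 2 h. Its H3K27ac folds were 5.15 and 6.28 at 0 h and 3.90 in 1 list of 30 min, with none later. Ikaros, CHD4 and H3K27ac were thus all called in both 0 h lists and in no 2 h list at this region.

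Near Tnfrsf8, which encodes a receptor of the TNF receptor family, the region at chr4:145367108-145367905 lay 52343 bp upstream of the start site. Its CHD4 folds were 4.06 and 4.59 at 0 h and 3.32 in 1 list of 30 min. Ikaros folds there were 23.9 and 36.2 at 0 h, 5.11 in 1 list of 1 h and otherwise not called. H3K27ac folds were 13.1 and 10.3 at 0 h, 5.10 in 1 list of 30 min, 4.62 in 1 list of 1 h, and 4.26 and 2.80 at 2 h. This was the member with the highest 0 h Ikaros folds among those 10, and its Ikaros call was lost while its H3K27ac call was kept.

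A region at chr10:78129454-78130829, in an intron and 37300 bp downstream of the start site of D10Jhu81e, had CHD4 folds of 4.41 and 3.85 at 0 h and no CHD4 peak in any later list. Its Ikaros folds were 16.1 and 16.1 at 0 h, 5.09 and 4.02 at 30 min, 3.86 in 1 list of 1 h and 3.90 in 1 list of 2 h. H3K27ac folds were 15.7 and 16.2 at 0 h, 6.10 and 5.65 at 30 min, 4.44 and 3.58 at 1 h and 2.85 in 1 list of 2 h. All later values of both marks at this region were below both 0 h values. The other 7 of the 10 strongest members lay near Cep78 (a centrosomal protein), Nek6 (a mitotic kinase), AI413582, Scn4a (a sodium channel of skeletal muscle), Bmper (a regulator of BMP signalling), Limd1 (a LIM domain scaffold) and Pacsin1 (an endocytic adaptor). Near Nek6, a region that kept both marks, the Ikaros folds were 6.90 and 6.57 at 0 h and 5.20 and 5.12 at 2 h, and the H3K27ac folds 12.6 and 11.0 at 0 h and 7.12 and 8.05 at 2 h.

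Enrichment was tested where a region had a peak in all 8 lists of a target, by limma on log2 fold centred on the library median, fitted over all such merged CHD4 regions with Benjamini-Hochberg adjustment over them. For Ikaros 2165 regions were fitted, 41 of them members, so that members whose call disappeared are not in this test. At 2 h, 10 of the 41 were lower than at 0 h (24.4%) at an adjusted p under 0.05, where 4.9% of all fitted regions were lower. None of the 41 was higher by limma, with 1 at an unadjusted p under 0.05, where 0.924% of all were higher. The median log2 change was −0.59 at members, 0.02 at retained regions and −0.01 at all regions. It was below 0 at 37 of 41 members. At 30 min 7 members were lower (3.14% of all) and at 1 h 7 (4.94% of all). Lower Ikaros folds were thus seen by 30 min, and the members' share past the threshold was above that of all regions at each time. The number of lower members at 2 h was 5 to 7 when 1 library of 0 h or 2 h was left out, and with percentile ranks in place of log2 folds no region passed, members or others.

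The 5 members with the smallest adjusted p lay near Bmper, Plekhm3, Angptl2 (a secreted angiopoietin-like protein), Asic4 (an ion channel) and Trp53i11. At the Bmper region, chr9:23568785-23571905, Ikaros folds were 11.2 and 19.6 at 0 h, 6.09 and 3.18 at 30 min, 4.52 and 3.13 at 1 h and 2.70 and 4.51 at 2 h. Every value after 4-OHT was below both 0 h values, and the centred log2 change at 2 h was −2.00 ± 0.36 (SE, limma adjusted p = 0.00045). At the Angptl2 region, in an intron at chr2:33220984-33222117, the folds were 14.9 and 15.9 at 0 h, 4.52 and 4.36 at 30 min, 5.68 and 6.50 at 1 h and 3.38 and 5.44 at 2 h, a change of −1.76 ± 0.34 (adjusted p = 0.00105 by limma). Again no later value reached those of 0 h. The changes at the Plekhm3, Asic4 and Trp53i11 regions were −1.86, −1.70 and −1.32. The Trp53i11 region kept a fold of 10.8 in 1 list of 1 h, inside its 0 h range of 10.79 to 12.05, and it passed in 4 of 9 other settings, against 8 of 9 for Bmper, Angptl2 and Asic4 and 7 of 8 for Plekhm3.

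**Figure D3:**
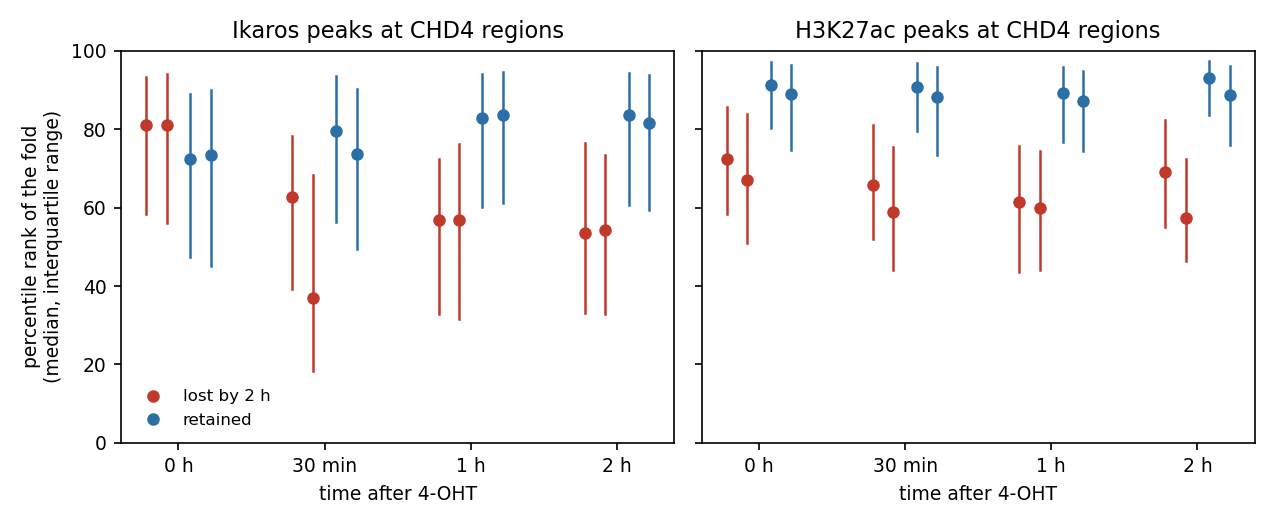
Percentile rank of the fold (y axis, median and interquartile range) of Ikaros and H3K27ac peaks at lost and retained CHD4 regions that had a peak, for each library by time after 4-OHT (x axis, replicate 1 left of replicate 2). The Ikaros medians of lost regions are 81.2 and 81.1 at 0 h and 53.6 and 54.4 at 2 h, and those of retained regions 72.3 and 73.5 and then 83.7 and 81.5.

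H3K27ac calls were also lost at part of the members. A peak of the mark lay at 213 and 211 members at 0 h (95.1% ± 0.634), at 213 and 201 at 30 min (92.8% ± 3.81), at 198 and 184 at 1 h (85.7% ± 4.44) and at 188 and 177 at 2 h (81.8% ± 3.49). Both 2 h values were below both 0 h values. Retained regions had 96.6% at 0 h and 96.8% at 2 h, and all merged regions 76.8% and 77.0%. The change at members was −13.2 ± 2.85 points (SD, n = 2), over same-numbered differences of −11.2 and −15.2, a pairing the labels do not give. Depth of these libraries differed little, from 3.74 to 4.34 fragments per base. It was −5.59 points without CHD4 2 h replicate 2 in the rule, −5.25 with CHD4 lists of equal size and −5.97 with a −log10 q of at least 3.

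At 18 members (8.07%) H3K27ac was called in both 0 h and neither 2 h list, against 1.63% of all merged regions and 0.363% of retained ones. Of the regions called in both 0 h lists, this was 8.53% of 211 members and 2.19% of 11425 in all. The reverse held at 0 members, of which only 10 could show it, and at 1.55% of all. Both Ikaros and H3K27ac calls were lost at 6 members and at 39 of all regions. The mark had a peak in all 8 lists at 167 of 223 members (74.9%), between the 68.1% of all merged regions and the 94.7% of retained or 83.0% of narrow retained ones, and in no list at 8 (3.59%), against 14.9% of all. The median H3K27ac rank of members with a peak was 72.4 and 66.9 at 0 h and 69.1 and 57.4 at 2 h, below that of retained regions at each time, which was 91.3 and 89.0 and then 93.0 and 88.7.

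For H3K27ac, 10463 regions were fitted, 167 of them members, of which 2 shared 1 set of peaks, those near Mafg and Sirt7. At 2 h 5 of the 167 were lower (2.99%), where 0.344% of all were lower. By limma 0 members were higher, with 4 at an unadjusted p under 0.05, where 0.468% of all were higher. At 30 min 1 member was lower (0.0669% of all) and at 1 h 2 were (0.191% of all). The median log2 change at 2 h was −0.49 at members (138 of 167 below 0), −0.01 at retained regions and 0.05 at all regions. These changes are relative to the median of each library, which was 4.00 and 3.72 at 0 h and 3.41 and 3.31 at 2 h on the log2 scale. Without that centring 26 members were lower, as were 321 of all 10463 regions. None of the 5 passed when 1 library of 0 h or 2 h was left out, a setting in which at most 1 of all 10463 regions was lower.

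The 5 lay near Gas6 (a ligand of TAM receptor kinases), Mrgpra2a, Ccm2l, Samd4 (an RNA-binding repressor of translation) and Plcl2. At the Gas6 region, in an intron of the gene, H3K27ac folds were 38.4 and 34.9 at 0 h, 14.2 and 11.3 at 30 min, 9.51 and 8.67 at 1 h and 8.10 and 4.60 at 2 h. Its values did not overlap between 0 h and any later time, and the change at 2 h was −2.09 ± 0.31 (SE, limma adjusted p = 0.0221). Ikaros folds at this region were 9.48 and 10.2 at 0 h and 3.90 and 4.98 at 2 h, a change of −1.07 that missed the threshold (adjusted p = 0.0512 by limma). At the Samd4 region, an intron at chr14:47027422-47028362, H3K27ac folds were 31.7 and 26.6 at 0 h, 12.7 and 10.4 at 30 min, 10.0 and 6.52 at 1 h and 9.09 and 6.00 at 2 h, a change of −1.48 ± 0.28 (adjusted p = 0.035 by limma). Here too the mark was lower in all 6 libraries after 4-OHT than in either before it. The changes near Mrgpra2a, Ccm2l and Plcl2 were −1.85, −1.63 and −1.38. CHD4 at these 5 regions was called in at most 1 list of 30 min and 1 of 1 h.

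**Figure D4:**
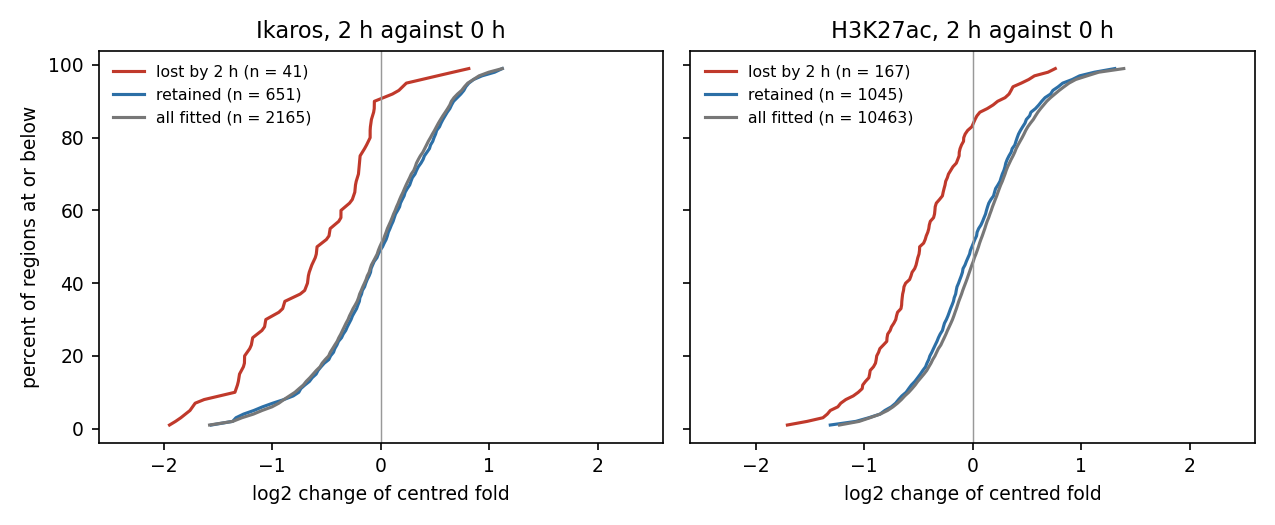
Cumulative percent of regions (y axis) by log2 change of the centred fold, 2 h against 0 h (x axis), for Ikaros and H3K27ac at lost, retained and all fitted CHD4 regions. The curves of the lost regions lie to the left of the others, with medians of −0.59 for Ikaros and −0.49 for H3K27ac.

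Members with no Ikaros peak in any list were few. Among the 9, the 5 of highest rank that also had no CHD4 peak at 30 min or 1 h lay near Prkar2a (a protein kinase A subunit), Zfp438, Ctr9 (a subunit of the PAF1 complex), Atxn2 (an RNA-binding protein) and Asmt (an enzyme of melatonin synthesis). Their CHD4 folds at 0 h ranged from 3.03 to 3.52. The Prkar2a region, in an exon 207 bp from the start site, kept H3K27ac folds of 8.78 and 10.1 at 0 h and 4.95 and 6.15 at 2 h. The Asmt region had neither mark in any list.

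Members were narrower than retained regions, a difference that the rule itself favours. The width of a region spans all CHD4 peaks merged into it. Members hold no 2 h peak by the rule, while retained regions hold peaks of both 2 h lists. The median width of members was 972 bp (interquartile range 727 to 1368). It was 2826 bp for retained, 1667.5 bp for partly kept and 822 bp for all merged regions. Whether members differ in width beyond the effect of the rule was not tested. The median distance to a transcription start site was 5391 bp, and 62 members (27.8%, Wilson 95% interval 22.3 to 34.0, which covers counting error only) lay within 1 kb of one, beside 26.4% of retained and 36.4% of all regions. By the annotation of their centre 117 lay in introns (52.5%, against 43.4% of retained, 50.5% of partly kept, 50% of narrow retained and 44.6% of all regions) and 70 between genes (31.4%, against 45.3%, 38.6%, 40.4% and 40.6%), with 19 in exons and 17 in UTRs. Of the members at the stricter q threshold (−log10 q of at least 3), 13.4% lay within 1 kb of a start site. The nearest CHD4 peak of either 2 h list was a median of 14026 bp away and within 1 kb at 23 members (10.3%). The 223 members had 210 nearest protein-coding genes, of which 53 were also nearest to a retained region and 13 to a region gained at 2 h (called in neither 0 h and both 2 h lists), so part of the genes kept or gained CHD4 at another region.

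The windows of members held an EBF palindrome more often than those of the other classes, and more Ikaros core words when set on the CHD4 peaks. In 300 bp windows on the 0 h CHD4 peaks, members held a mean of 9.41 core words on both strands, against 7.81 at retained and 8.69 at narrow retained regions. All merged regions held 7.08, but 9154 of them had no 0 h CHD4 peak. Windows without such a peak were set on the middle of the region, so the values of all regions here rest partly on another centre. On the strongest 0 h Ikaros summit the means lay closer together, at 10.8 for members, 10.2 for retained, 9.89 for narrow retained and 10.1 for all regions with such a peak. Their median GC content was 52.7%, against 50% at retained, 52.2% at narrow retained and 47.7% at all regions. EBF transcription factors, of which EBF1 commits progenitors to the B lineage, bind a palindrome whose arms are themselves Ikaros core words, so each match also counts as core words. The palindrome was in 22 member windows (9.87%, Wilson 95% interval 6.61 to 14.5), in 2.72% of retained windows (1.91 to 3.86), in 4.09% of partly kept and in 2.44% of all. The share at members was above those of the other classes. By GC content, it was in 2 of 28 member windows under 45% GC (7.14%), against 3.79% of retained, 0% of partly kept and 1.16% of all. Between 45% and 55% it was in 6.14% of 114, against 2.54%, 5.03% and 2.98%, so that members were close to the partly kept regions there. Above 55% it was in 16.0% of 81, against 2.09%, 4.86% and 3.56%. With the windows set on the strongest 0 h Ikaros summit, 31 of 201 members (15.4%, interval 11.1 to 21.1) held it, against 6.71% of 939 retained regions (5.28 to 8.49), 9.13% of 493 partly kept ones (6.89 to 11.996), 8.57% of 70 narrow retained ones and 5.81% of 6643 in all. There the interval of members overlaps that of the partly kept regions. With every window on the middle of its region, the palindrome was in 8.52% of members and 2.38% of all regions. It was then in 2.36% of retained, 3.56% of partly kept and 4.26% of narrow retained regions. The intervals treat windows as independent and all regions include the members, so the intervals are a description and not a test. No test was run because the members were chosen with these data in view.

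Other words differed less. The RUNX word TGTGGT was in 31.4% of member windows and 28.0% of retained ones, the E-box CAGGTG in 22.4% and 25.2%, the STAT word TTCNNNGAA in 8.52% and 9.43%, the AP-1 word TGANTCA in 8.52% and 8.88% and the GC box GGGCGG in 11.2% and 15.4%. In all merged regions these were 24.3%, 20.5%, 9.30%, 8.32% and 16.4%. The CRE word TGACGTCA was in 0 member windows and in 0.677% of all.

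**Figure D5:**
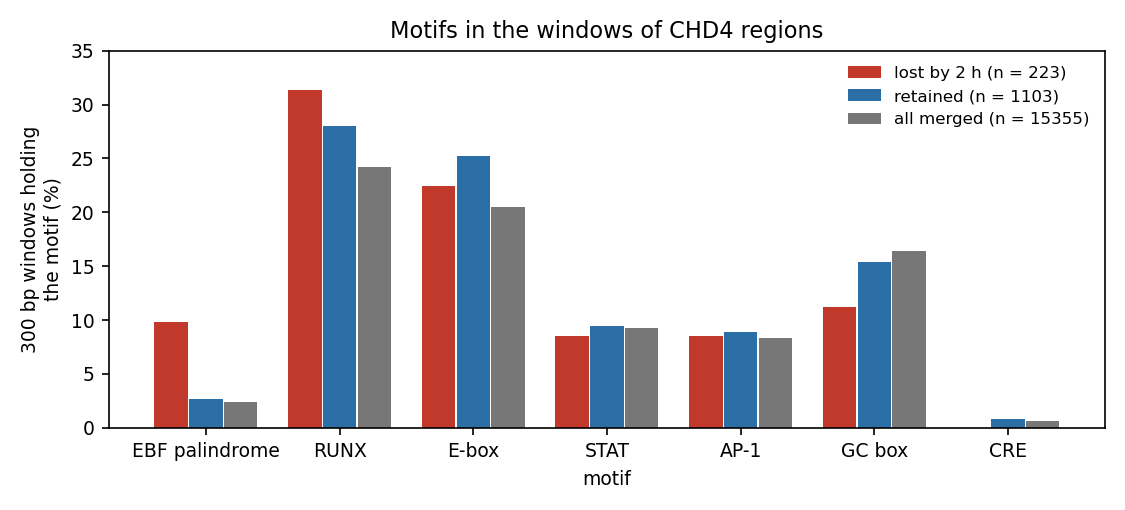
Percent of 300 bp windows (y axis) that hold each motif on either strand (x axis) for lost, retained and all merged CHD4 regions. The EBF palindrome is in 9.87% of the lost windows, 2.72% of the retained and 2.44% of all, while the other motifs are closer together.

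Sequences of 7 of the 22 members with the palindrome are shown to compare their arms and centres, with 25 bases on each side on the plus strand of GRCm38 and the match in capitals.
AI413582 chr17:27562514-27562573: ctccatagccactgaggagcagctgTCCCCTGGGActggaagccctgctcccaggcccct
Asic4 chr1:75447775-75447834: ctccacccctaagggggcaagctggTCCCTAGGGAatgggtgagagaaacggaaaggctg
Ric8b chr10:84903705-84903764: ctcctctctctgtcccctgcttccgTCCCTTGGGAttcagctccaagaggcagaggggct
Casz1 chr4:148928523-148928582: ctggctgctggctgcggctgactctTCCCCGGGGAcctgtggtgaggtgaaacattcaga
Bcl2 chr1:106555687-106555746: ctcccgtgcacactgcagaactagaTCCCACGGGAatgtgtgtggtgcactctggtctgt
Plekhm3 chr1:64798655-64798714: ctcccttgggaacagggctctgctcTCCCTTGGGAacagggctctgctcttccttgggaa
Ppp2r5b chr19:6228504-6228563: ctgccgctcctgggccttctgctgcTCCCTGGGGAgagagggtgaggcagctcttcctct
The match lay 1 bp from the strongest 0 h Ikaros summit near Ric8b, 4 bp from it near Ppp2r5b and 110 bp from it in Bcl2. The Plekhm3 match sits in a tandem repeat of the same arms, and its 180-base window around the summit held 23 core words. At the Asic4 region, Ikaros folds were 14.6 and 20.6 at 0 h and 4.42 and 5.76 at 2 h. Among the 22, Ikaros was called at 19 and 22 in the 0 h replicates and at 15 and 17 at 2 h, and H3K27ac at 19 and 18 and then 14 and 14. CHD4 was called at 4 and 3 of them at 30 min and at 6 and 2 at 1 h. Members with the palindrome therefore lost calls of both marks, as did those without it, where H3K27ac went from 96.3% to 83.8% and Ikaros from 82.3% to 59.5%.

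Some genes of the B lineage were among the neighbours of members. Of 30 transcription factors of the lineage, 5 were the nearest gene of a member or overlapped it (Ebf1, Irf8, Bcl6, Runx1 and Fli1), against 20 for retained and 30 for all merged regions. The Ikaros family had 1 of 5 (Ikzf1), the IL-7 receptor and STAT5 pathway 2 of 16 (Stat5b and Bcl2, which is also the 1 of 14 apoptosis genes), the Notch pathway 2 of 13 (Notch1 and Hes1), pre-B cell receptor signalling 1 of 30 (Vav2) and glucose metabolism 1 of 14 (Hk1). All merged regions had 2 of the Ikaros family, 14 of the IL-7 list, 10 of apoptosis, 9 of Notch, 26 of pre-B cell receptor signalling and 9 of glucose metabolism. NuRD subunits, recombination, adhesion, cell cycle and immediate early genes had 0 of 15, 10, 27, 26 and 16 for members. All merged regions had 8, 6, 22, 22 and 15 of these. In all, 231 of 21924 protein-coding genes were near a member, 905 near a retained region and 7614 near any merged region. Counts this small, 0 among them, are a description, and no list was tested.

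The Ikzf1 member, in an intron of the annotation 25783 bp upstream of the nearest Ikzf1 start site at chr11:11658969-11659470, had CHD4 folds of 3.57 and 3.81 at 0 h and none later. Ikaros folds there were 8.35 and 10.1 at 0 h, 3.96 in 1 list of 30 min and 4.16 in 1 list of 2 h. H3K27ac folds were 27.03 and 15.5 at 0 h and 13.8 and 14.0 at 2 h, with all 8 lists called. This region lost its CHD4 and most of its Ikaros calls and kept the acetylation, and the nearest CHD4 peak of 2 h was 916 bp away.

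The Bcl2 member, chr1:106555358-106556002, in an intron 157499 bp downstream of the start site of this survival gene, holds the EBF palindrome shown above. Its CHD4 folds were 3.39 and 4.03 at 0 h, with no later peak, and its nearest CHD4 peak of 2 h was 157485 bp away. Ikaros folds were 9.05 and 10.5 at 0 h, 5.93 and 3.61 at 30 min, 6.53 and 3.36 at 1 h and 4.10 in 1 list of 2 h. All later Ikaros values were below both 0 h values, and H3K27ac was not called there in any list.

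The member in an intron at Irf8, which encodes an interferon regulatory factor of B and myeloid cells, was at chr8:120762622-120763798, 11001 bp downstream of the start site. Its Ikaros folds were 9.29 and 12.6 at 0 h, 3.69 in 1 list of 30 min, 4.55 in 1 list of 1 h and absent at 2 h. Its H3K27ac folds were 12.8 and 16.9 at 0 h and 6.99 and 7.02 at 2 h. CHD4 there had folds of 3.44 and 3.17 at 0 h and 3.59 in 1 list of 30 min.

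At the Vav2 member, an intron 25745 bp downstream of the start site of this guanine nucleotide exchange factor, Ikaros folds were 8.40 and 8.65 at 0 h, 9.09 and 9.90 at 1 h and 8.00 in 1 list of 2 h. Here Ikaros was as high 1 h after 4-OHT as before it, and CHD4 was called in both 1 h lists with folds of 4.13 and 3.43. H3K27ac folds were 24.97 and 21.4 at 0 h and 7.84 and 11.5 at 2 h. The Hk1 member, an intron of the hexokinase gene, had Ikaros folds of 9.29 and 20.8 at 0 h, 7.39 and 7.73 at 1 h and 5.97 in 1 list of 2 h, and CHD4 in 1 list of 30 min and both of 1 h. The Hes1 member, 54803 bp upstream of this Notch target, had Ikaros in all 8 lists, with folds of 4.31 and 6.10 at 0 h, 6.82 and 8.66 at 1 h and 4.68 and 3.85 at 2 h, and lost its H3K27ac call at 2 h from folds of 8.41 and 5.51.

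The Ebf1 member, 673 bp upstream of a start site of the gene, was among the weakest in CHD4, with folds of 2.78 and 2.996 at 0 h and ranks of 3.34 and 4.42. Its Ikaros folds were 4.19 in 1 list of 0 h, 5.98 and 4.55 at 30 min and 4.71 in 1 list of 2 h, and its H3K27ac folds were 7.46 and 6.38 at 0 h and 5.20 and 3.87 at 2 h. The Stat5b member, 349 bp upstream of a start site, had CHD4 folds of 3.53 and 3.20 at 0 h and a 2 h peak 438 bp away. Its Ikaros folds were 3.45 and 3.70 at 0 h and 4.94 and 4.29 at 2 h, so this member was not among those with less Ikaros. Runx1 and Notch1 each had 2 members. At the stronger Runx1 member, 12619 bp upstream of the start site, H3K27ac folds were 23.0 and 23.8 at 0 h and 21.7 and 7.37 at 2 h, and the 2 h replicates lie on either side of a wide gap. The Fli1 member differed between its 0 h replicates, with CHD4 ranks of 88.3 and 2.92. The member that overlaps Bcl6, a repressor of the germinal centre, kept Ikaros folds of 4.94 and 6.08 at 2 h beside 5.17 and 2.90 at 0 h.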

How the data were processed

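The authors aligned reads to mm10 with Bowtie2 2.4.2, handled duplicates with Picard 2.23.7 and called peaks with MACS2 2.2.7.1, in broad mode for CHD4, and deepTools 3.5.0 is named in the submitters' processing notes. The methods state this for 0, 1 and 2 h, and the settings of the 30 min libraries are not given in the sources used here. For ChIP-seq a blacklist is named for the coverage tracks and not for the peak lists. The lists deposited by the authors give a score (a display value, not used), a fold enrichment (a ratio), and −log10 of p and q. They hold no read counts, so no count model was run.

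Peaks were matched at 1 bp of overlap (Python 3.11.15, numpy 2.4.6, scipy 1.17.1, pysam 0.24.0). Coverage was solved from the fold and p of narrow peaks. Genes came from GENCODE M21, and sequence from GRCm38.p6. Retained regions no wider than the members' upper quartile are called narrow. Fits used limma 3.58.1 in R 4.3.3, with time as 4 groups, and were tested on simulated data. A region's value was that of its strongest overlapping peak. Groups came from the titles, and same-numbered replicates share only a number. The members and lists were chosen with earlier results of these data known. Named regions were the 10 of highest 0 h CHD4 rank, those of smallest adjusted p (up to 8 for H3K27ac, up to 5 for Ikaros), the 5 strongest with no Ikaros or later CHD4 peak, the 5 strongest in all 4 middle CHD4 lists, and those near genes of the lists. Alternatives changed thresholds, overlap, merging, list size, libraries, scaling and window centre. Some items of the sequence displays are not reported here.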

Additional observations from a re-analysis of the deposited data

How the results depend on the processing

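The number of members depended on the calls that set the rule. There were 67 with −log10 q of at least 3 in every list, 336 with a fold of at least 3 and 448 with CHD4 lists of equal size, and 274 to 1636 when 1 CHD4 library of 0 h or 2 h was left out. An overlap of 50% and merging within 1000 bp left the number within 1.5 times. CHD4 calls at 30 min moved to 37.2% with equal lists, and those at 1 h to 37.3% at the stricter q and 39.1% at the stricter fold, with 11.4% to 47.8% and 14.3% to 57.4% over the left-out libraries.

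All changes of Ikaros and H3K27ac calls kept their sign in every setting run. The Ikaros change at members was −8.21 points at the stricter q, −14.9 at the stricter fold, −5.13 with equal lists and −26.0 with the 50% overlap, and −17.7 to −2.38 over the left-out libraries. Set against retained regions it was −29.3, −29.0, −19.0 and −42.2 in the same 4 settings, −46.6 against narrow retained regions, −41.6 against all regions, and −30.9 to −17.7 over the left-out libraries. The H3K27ac change was −5.97 at the stricter q, −5.25 with equal lists and −11.6 to −5.59 over the left-out libraries. Against retained regions it was −6.27 with equal lists, −16.4 against the narrow ones and −11.8 to −5.80 over the left-out libraries. The comparisons with narrow or all regions, the middle 500 bp and the other window centres were chosen after the data were seen. The share near start sites was 13.4% at the stricter q, 20.3% with equal lists and 40.8% within 3 kb. The EBF palindrome was in 15.4% of windows on the Ikaros summit. The cause of these shifts was not tested.

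In the limma fits, lower members for H3K27ac numbered 26 without centring and 0 in each fit that left out a library. For Ikaros they numbered 0 on percentile ranks, 23 with a peak in at least 6 lists and 5 to 7 over the left-out libraries, and 1 member, near Ppard, was higher without Ikaros 0 h replicate 1. With the replicate block they were 4 for H3K27ac and 13 for Ikaros. The labels do not pair the replicates, and the deviations of same-numbered 0 h and 2 h libraries correlated at 0.0252 for H3K27ac and 0.0514 for Ikaros. The CHD4 lists give no depth, so calls cannot be set against it.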

Other observations

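Members within 1 kb of a start site and those farther away differed in Ikaros before 4-OHT. The 62 near start sites had an Ikaros peak at 72.6% ± 4.56 at 0 h and 59.7% in both 2 h replicates, and the 161 others at 87.6% ± 5.27 and 61.2% ± 3.95 (SD, n = 2). Over all merged regions the 0 h shares were 41.7% near start sites and 32.2% elsewhere, and at retained regions 79.6% and 77.7%. H3K27ac was alike in both at the first and last time, at 96.0% ± 1.14 and 94.7% ± 0.439 at 0 h and 81.5% ± 3.42 and 82.0% ± 3.51 at 2 h. At 1 h it was higher near start sites, at 91.9% ± 2.28 against 83.2% ± 5.27 farther away. Over all merged regions H3K27ac was at 92.5% and 67.8% at 0 h and at 91.3% and 67.3% at 1 h. At 30 min the promoter members were called for CHD4 at 32.3% in replicate 1 and 4.84% in replicate 2, a spread wider than the difference between the 30 min and 1 h means of 18.5% and 26.6%.

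Members lay on 20 chromosomes, and 34 of them (15.2%) were within 100 kb of another member. Chromosomes 11 and 2 held 26 and 25 of them, which is 2.04% and 2.19% of the merged CHD4 regions there, while chromosome 13 held 7, or 0.642%. At the other end of the distances, 20 members were over 100 kb from any CHD4 peak of 2 h.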
